A study of Mus musculus with 2 samples.

Results

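The genes described here carry glucose into and through glycolysis, move lactate, and respond to low oxygen. They are 32 genes, chosen by name, of the 32285 genes counted in single cells of mouse bowel and mesenteric adipose tissue (the fat along the bowel). Of the 32, 21 belong to glycolysis and 11 to the hypoxia response, and every one was found in the count matrices (Aldoa has 2 rows, which were summed, so that 33 rows were read). Cells came from mice given as B6/C57, aged 8 to 12 weeks, on postoperative day 14. One library was made from mice given a colotomy, an incision of the colon, and the other from mice given a sham operation. Both libraries hold cells of both tissues after enzyme digestion, marked with the same 2 hashtag antibodies, which were not used here. The share of each tissue in a class was not determined and may differ between the libraries. It cannot be told apart from the operation. The number and sex of the mice are not given in the sources used here.

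Each group is a single library without a replicate. Every difference below lies between 2 libraries, so the operation itself was not tested and p-values are left out. Intervals are at 95% and reflect counting error alone; the spread over animals, digestions and libraries is not in them. The colotomy library held 12002711 gene UMIs (unique molecular identifiers, each counting 1 captured RNA) over 15547 barcodes, and the sham library 74006762 over 44814. After filtering, 9246 and 42143 cells were kept, with medians of 778.5 and 1328 UMIs. The libraries had 190 barcodes in common, 108 of them among kept cells. Xist, a female-specific RNA of X inactivation, stood at 501 CPM (UMIs of a gene scaled to 1000000 UMIs of the class) in fibroblast-like cells of the colotomy library and at 1.47 CPM in the sham library, while Y-linked genes stood at 163 and 210 CPM. The colotomy library held RNA of both kinds and the sham library almost no Xist, so the sex of the mice and the operation cannot be fully told apart. Values restricted to male-marked cells (at least 1 Y-linked UMI, Xist at 0) are given for some members, among them each called member of the fibroblast- and macrophage-like cells that was within 1.5-fold in them.

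Glycolysis splits glucose into pyruvate and yields ATP without oxygen. Glucose enters through GLUT transporters (Slc2a1, Slc2a3), is phosphorylated by hexokinases (Hk1, Hk2) and passes through a chain of enzymes ending in pyruvate kinase (Pkm). Lactate dehydrogenase (Ldha, Ldhb) turns pyruvate into lactate, which leaves or enters cells through MCT1 (Slc16a1) and MCT4 (Slc16a3), the latter known as the exporter of strongly glycolytic cells. In low oxygen the HIF alpha subunits (Hif1a, Epas1) escape the prolyl hydroxylases (Egln1, Egln3) and bind hypoxia response elements, whose core reads ACGTG or GCGTG. Hif1a protein is set mainly by its breakdown, so the RNA level of Hif1a or Epas1 is not a measure of HIF activity. Inflamed bowel is known for low oxygen, and activated macrophages and matrix-forming fibroblasts for a high glycolytic rate.

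To show where this core lies, the 250 bases before the start of transcription were read from RefSeq promoters of GRCm38.p6 (mm10, the build of the counts). Such windows were given for 29 of the 32 members (43 windows, since some genes have several starts). Slc2a3, Epas1 and Ndrg1 had no window. The core ACGTG, read on both strands, lay in 51.2% of the members' windows and in 16.7% of all 32536 RefSeq windows of this length, and GCGTG in 51.2% and 28.3%. Either core was present in at least 1 window of 27 of the 29 members. ACGTG overlaps the E-box CACGTG, the site of MYC-like factors, which lay in 14.0% of the members' windows and in 6.04% of all. The members' windows were also richer in G and C, with a median of 62.8% against 52.4%. A match of letters is a description of the sequence and not a site shown to be bound. The promoters of 5 members follow, chosen after their values were seen because they stood at least 2-fold higher in macrophage-like cells of the colotomy library and show the core in different arrangements, each 5′ to 3′ in the direction of the gene, with the cores of either strand in capitals.
Slc16a3: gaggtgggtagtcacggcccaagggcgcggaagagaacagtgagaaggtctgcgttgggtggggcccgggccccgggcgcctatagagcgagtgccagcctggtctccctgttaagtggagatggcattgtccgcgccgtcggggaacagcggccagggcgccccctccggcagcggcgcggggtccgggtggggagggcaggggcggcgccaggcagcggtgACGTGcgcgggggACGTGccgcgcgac
Bnip3: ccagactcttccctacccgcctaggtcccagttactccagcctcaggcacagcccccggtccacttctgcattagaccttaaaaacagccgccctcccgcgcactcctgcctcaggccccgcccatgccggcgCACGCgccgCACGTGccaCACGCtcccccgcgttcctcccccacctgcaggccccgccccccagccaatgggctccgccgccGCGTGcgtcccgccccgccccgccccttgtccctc
Slc2a1: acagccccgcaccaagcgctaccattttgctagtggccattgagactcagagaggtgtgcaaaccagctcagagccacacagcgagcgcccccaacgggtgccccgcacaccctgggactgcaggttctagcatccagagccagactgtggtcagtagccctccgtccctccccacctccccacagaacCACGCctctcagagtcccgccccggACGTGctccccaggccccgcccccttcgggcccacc
Pgk1: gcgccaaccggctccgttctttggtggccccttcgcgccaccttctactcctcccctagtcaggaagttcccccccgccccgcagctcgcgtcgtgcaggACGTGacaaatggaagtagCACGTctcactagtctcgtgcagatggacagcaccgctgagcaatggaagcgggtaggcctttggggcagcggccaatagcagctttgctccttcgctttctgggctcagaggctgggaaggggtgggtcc
Hif1a: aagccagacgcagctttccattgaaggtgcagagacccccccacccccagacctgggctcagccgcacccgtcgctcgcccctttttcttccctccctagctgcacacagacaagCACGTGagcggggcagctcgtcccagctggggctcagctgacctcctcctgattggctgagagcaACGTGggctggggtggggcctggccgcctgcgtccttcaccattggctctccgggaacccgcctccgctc
The Slc16a3 window (chr11:120948817-120949066, plus strand) holds ACGTG beginning 27 and 14 bases before the start. In Bnip3 (chr7:138909507-138909756, minus strand) 4 runs of capitals begin 117, 108, 99 and 35 bases before it, and the second is the E-box. Slc2a1 (chr4:119108495-119108744, plus strand) has 1 core of each kind, beginning 61 and 36 bases before the start. Pgk1 (chrX:106186850-106187099, plus strand) holds 2 copies of ACGTG on opposite strands, and Hif1a itself (chr12:73907617-73907866, plus strand) holds an E-box and a further ACGTG.

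Cells were clustered with the 32 members left out, so the members took no part in forming the classes. Classes were named by marker genes as fibroblast-like, macrophage-like and so on. Of 28 clusters 19 were named, giving 13 classes. The 10 classes with at least 100 cells in both libraries were compared, and smooth muscle-like, neutrophil-like and erythroid-like cells are given as levels only. The vascular endothelial-like cluster also had the lymphatic genes Ccl21a and Mmrn1 among its leading genes. Markers of other cells moved with the groups. In fibroblast-like cells, neutrophil markers (8 of 8 higher) summed to 1786 CPM in the colotomy library and 74.5 CPM in the sham library, with Camp at 0 in the latter, and B cell markers (8 of 8 lower) to 412 and 1841 CPM. At a finer clustering resolution of 2, some clusters carried fibroblast markers beside those of another cell type and were left unnamed. Among them were clusters with markers of macrophages (233 and 237 cells), plasma cells (177 and 67) and neutrophils (309 and 70). The part of these markers and mixed clusters in the results was not tested. The free RNA profile of each library was estimated at 11.7% and 16.3% of the UMIs of fibroblast-like cells. With it subtracted, 5 members were higher in that class, as without it, and 8 were lower instead of 7. In macrophage-like cells 16 were higher instead of 14. That profile was summed from barcodes of the deposited matrices and not from droplets known to be empty. The subtraction therefore cannot show whether free RNA had a part in the results.

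Summed over the 21 glycolysis members, epithelial-like cells had the highest level of the 10 classes in both libraries, and the libraries differed most in immune classes. Epithelial-like cells stood at 2858 CPM in the colotomy library and 3093 CPM in the sham library, and fibroblast-like cells at 1392 and 1465 CPM. Of the classes compared, the 4 immune classes macrophage-, dendritic-, T cell- and B cell-like were higher in the colotomy library. Macrophage-like cells held 2381 CPM in the colotomy library against 1663 CPM, 1.43-fold more (1.34 to 1.53). Dendritic-like cells held 2374 against 1747 CPM, and T cell-like cells 2775 against 1570 CPM. B cell-like cells held 2426 against 1379 CPM. Plasma cell-like cells went the other way, with 1271 against 1487 CPM. Neutrophil-like cells, with 174 and 65 cells, had 3132 and 2308 CPM. In the colotomy library the T and B cell-like classes numbered only 126 and 134, and their median depth was 621.5 and 637 UMIs against 902 and 1083. Of the 134 colotomy B cell-like cells, 103 came from a cluster that held 3693 sham cells. The part of this unequal make-up was not tested.

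The 11 hypoxia members followed another order. They were highest in vascular endothelial-like cells, at 1264 and 1119 CPM, and lowest among the classes compared in plasma cell-like cells, at 266 and 230 CPM. Of the 10 classes compared, epithelial-like cells were next at 819 and 865 CPM. Smooth muscle-like cells, not among the 10, held 1026 CPM in 53 colotomy cells. Between libraries the sum was 1.77-fold higher in colotomy macrophage-like cells (530 against 300 CPM, interval 1.54 to 2.04) and 1.82-fold in dendritic-like cells (587 against 322 CPM, 1.53 to 2.15). In fibroblast-like cells it was 1.26-fold higher (569 against 453 CPM, 1.19 to 1.33). For vascular endothelial-, mesothelial-, epithelial-, B cell- and plasma cell-like cells the interval of the ratio included no difference.

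**Figure D1:**
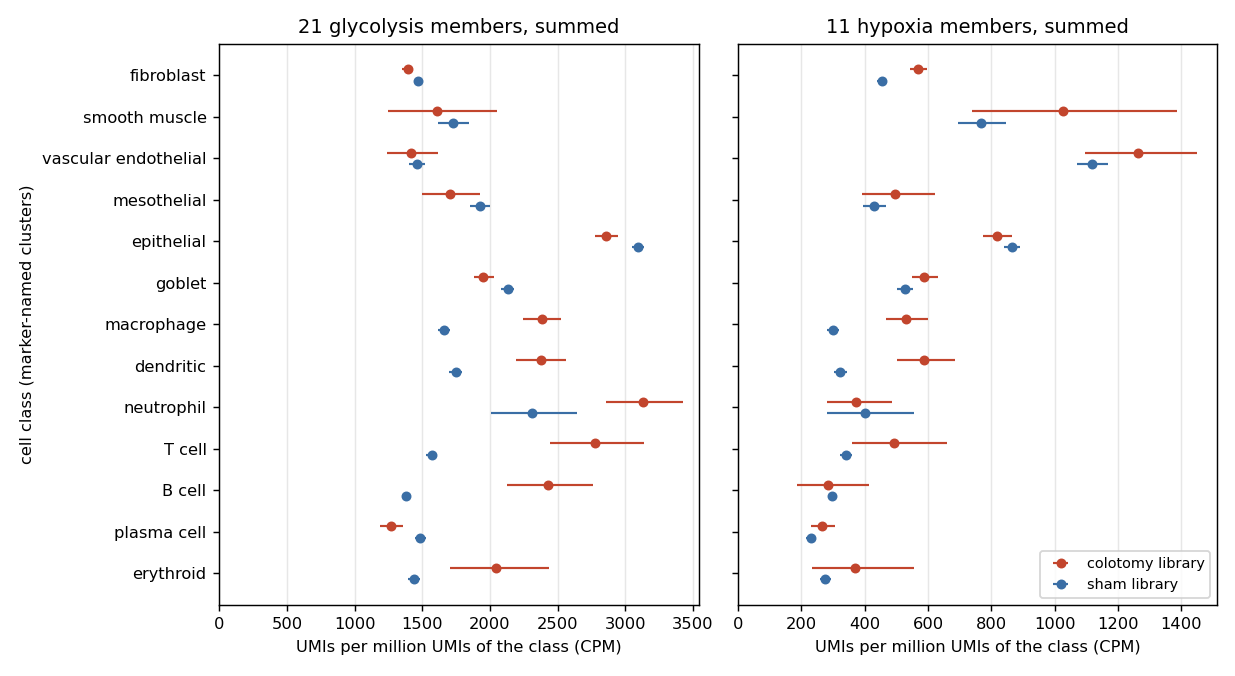
Summed level of the 21 glycolysis members (left) and the 11 hypoxia members (right) in each cell class, in CPM, with points for the 2 libraries and bars for exact 95% Poisson intervals (counting error only). On the left the colotomy point lies above the sham point in macrophage-like cells (2381 and 1663 CPM) and lies close to it in fibroblast-like cells (1392 and 1465 CPM).

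In fibroblast-like cells (3800 and 5417 cells) the lactate transporters and both HIF subunits were at least 1.5-fold higher in the colotomy library. No enzyme of the pathway was in the main setting, though some were in other settings. All 32 members had at least 10 UMIs over both libraries, the minimum for a count. At least 1.5-fold higher were 5 members, beside 17.7% of all genes tested, and at least 1.5-fold lower were 7 members, beside 18.8%. The members' counts are near the shares of all genes. The members' median log2 ratio was 0.07 and that of all 14644 genes -0.02.

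Transport and oxygen sensing held 4 of the 5 higher members. Slc16a3 (MCT4) stood at 25.2 CPM (79 UMIs) in the colotomy library and 3.68 CPM (35 UMIs) in the sham library, 6.84-fold more (4.54 to 10.5). In male-marked cells its log2 ratio was 1.69, beside 2.77 in all cells. Slc16a1 (MCT1) stood at 30.3 and 11.3 CPM, 2.69-fold more (2.02 to 3.58). The glucose transporters showed no such gap: Slc2a1 was at 9.56 and 12.8 CPM and Slc2a3 at 11.8 and 11.1 CPM. Hif1a, the subunit found in most cells, was at 198 and 94.6 CPM, 2.10-fold more (1.89 to 2.33). Epas1, the subunit best known from endothelium, was at 65.9 and 35.7 CPM, 1.84-fold more (1.54 to 2.20). The hydroxylases that mark HIF for breakdown were not higher. Egln1 was at 59.9 and 52.8 CPM, within 1.5-fold, and Egln3 had only 3 and 18 UMIs.

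The enzymes gave 3 of the 7 lower members and none of the higher. Eno1 (enolase) was at 14.3 CPM in the colotomy library and 33.0 CPM in the sham library, 2.30-fold lower (a log2 ratio of -1.20, and of -2.79 in male-marked cells). Gapdh was at 136 and 238 CPM, 1.75-fold lower, and Pfkfb3, which makes the activator of phosphofructokinase, at 11.8 and 22.8 CPM, 1.94-fold lower. Gapdh, Eno1, Pgk1 and other glycolytic genes have near-identical copies in the genome, so the split of reads among them is uncertain. Eno1b, the copy of Eno1 among the features, held 2 and 13 UMIs here. Each remaining enzyme lay within 1.5-fold, from Pfkp at 44.9 and 66.6 CPM to Pfkm at 13.7 and 9.57 CPM. The most abundant of these differed little: Aldoa (aldolase) was at 197 and 221 CPM, Pkm at 188 and 181 CPM, Gpi1 at 159 and 186 CPM and Ldha at 164 and 139 CPM. Pgk1 was 1.38-fold higher at 107 and 77.1 CPM (1.21 to 1.58), Pgam1 1.26-fold at 87.9 and 69.7 CPM (1.09 to 1.45), and Ldha 1.18-fold (1.06 to 1.31). For these 3 the interval lay above no difference. In cells of at least 1000 UMIs and 500 genes, Pgk1 (log2 ratio 0.76) and Pfkm (0.84) were past 1.5-fold higher. In the Inmt-led cluster described below, Hk1 (0.70) and Pfkl (0.63) were.

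The hypoxia targets divided. Mxi1, a repressor that opposes MYC, was at 43.6 and 21.9 CPM, 2.0-fold higher (1.60 to 2.49). In male-marked cells its log2 ratio was 0.069, which is within 1.5-fold. Adm (the vasodilator peptide adrenomedullin) was at 33.1 and 60.1 CPM, 1.82-fold lower. Ddit4 (REDD1, an inhibitor of mTORC1) was at 15.9 and 31.1 CPM, 1.95-fold lower. Ankrd37 had 9 and 52 UMIs (2.87 and 5.47 CPM, 1.91-fold lower), and its interval included no difference, as did that of Egln3. Bnip3 (mitophagy), Ndrg1 (a stress-response gene) and Higd1a (a mitochondrial survival factor) lay within 1.5-fold. So 1 target was higher, 3 were lower and 3 lay between.

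**Figure D2:**
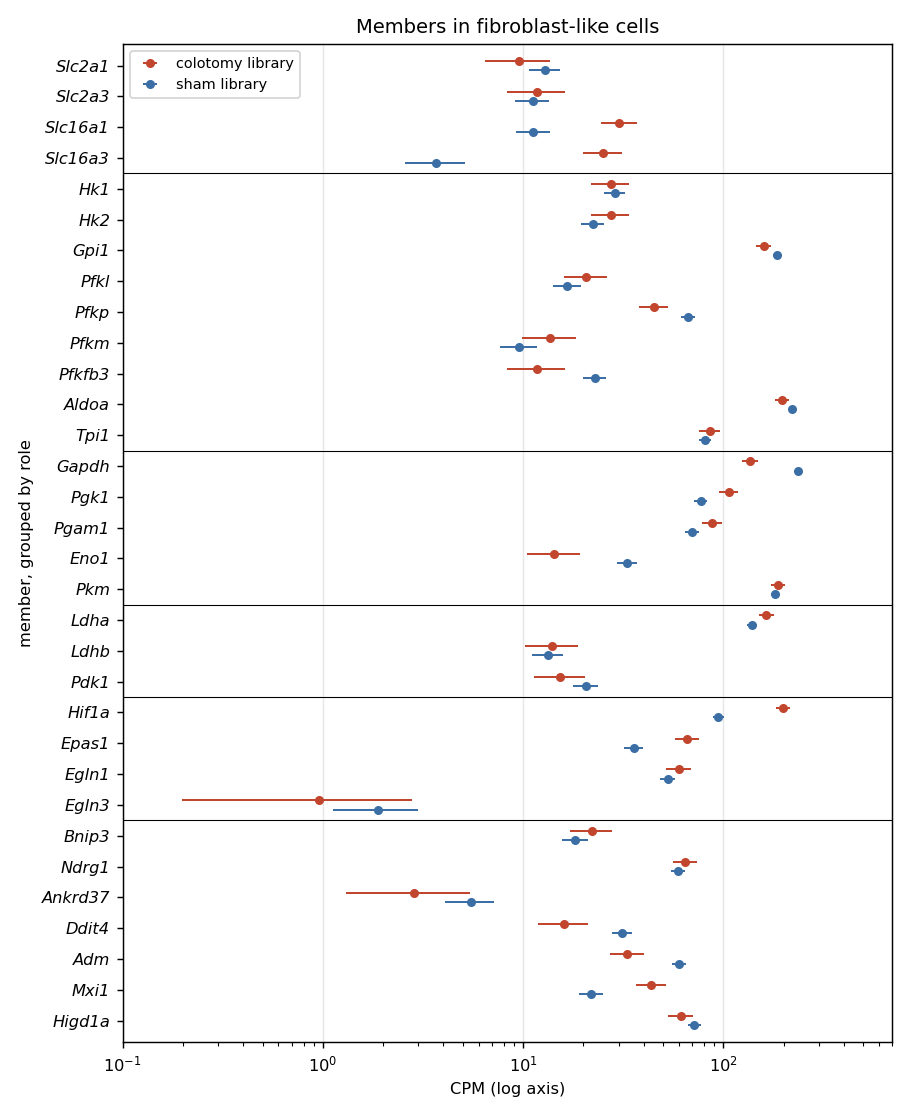
Level of each member in fibroblast-like cells, in CPM on a log axis, in the 2 libraries, with exact 95% Poisson intervals and lines between the 6 groups of roles. The 2 points are farthest apart for Slc16a3 (25.2 and 3.68 CPM), and Eno1 and Gapdh lie to the left in the colotomy library.

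The class was made up of 3 fibroblast clusters, and their shares differed between the libraries. A cluster led by Inmt held 810 and 3644 cells, one led by Pi16 held 618 and 1473, and one led by Ptn, with Col1a1 and Timp1 among its leading genes, held 2372 and 300. Hif1a was higher in all 3: 156 against 92.5 CPM in the Inmt-led, 174 against 90.3 in the Pi16-led and 217 against 136 in the Ptn-led cluster. Slc16a3 was at 12.9 and 2.44, 12.7 and 3.28, and 31.8 and 18.2 CPM in the same order, so the Ptn-led cluster held more of it in both libraries. Its 1.75-fold gap there rested on 65 and 11 UMIs, with an interval that included no difference (0.914 to 3.67). Epas1 differed by 2.45-fold in the Inmt-led and by 1.27-fold in the Ptn-led cluster. Gapdh was lower in all 3, at 153 and 257, 91.1 and 197, and 141 and 222 CPM. Eno1 was at 16.1 and 36.2 CPM in the Inmt-led and 8.48 and 29.1 CPM in the Pi16-led cluster, but at 15.2 and 18.2 CPM in the Ptn-led cluster, within 1.5-fold. Mxi1 was past 1.5-fold only in the Inmt-led of the 3 clusters, at 62.7 and 19.8 CPM, against 29.7 and 24.8 CPM in the Pi16-led and 41.1 and 29.8 CPM in the Ptn-led. Adm too was past it only in the Inmt-led cluster, and Slc16a1 was within it in the Pi16-led cluster, at 14.8 and 11.3 CPM. Pfkfb3 was at 12.9 and 27.4 CPM in the Inmt-led and 4.24 and 14.9 CPM in the Pi16-led cluster, and Ddit4 at 24.1 and 34.6 and at 8.48 and 26.9 CPM. In the Ptn-led cluster neither was lower, with Pfkfb3 at 13.2 and 11.6 CPM and Ddit4 at 15.2 and 14.9 CPM. Summed glycolysis members were at 1575 and 1505 CPM in the Inmt-led, 1064 and 1352 CPM in the Pi16-led and 1412 and 1575 CPM in the Ptn-led cluster.

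Timp1, an inhibitor of matrix-degrading enzymes, marks activated fibroblasts. At least 1 UMI of it was found in 701 of 3800 colotomy fibroblast-like cells (18.4%, exact Clopper-Pearson interval 17.2% to 19.7%) and in 329 of 5417 sham cells (6.07%, 5.45% to 6.74%). With every cell thinned to 500 UMIs the shares were 12.6% and 2.14%. In T and B cell-like cells, which should lack it, they were 0.385% and 0.0623% (unthinned 0.769% at a median of 635 UMIs and 0.132% at 1021). Timp1-positive colotomy cells held 1603 CPM of glycolysis members against 1332 CPM in Timp1-negative cells, 1.2-fold more (1.12 to 1.29), and in the sham library 1582 against 1456 CPM. Hypoxia members did not follow, at 574 and 568 CPM. Of the 30 members measured, 4 were at least 1.5-fold higher in the positive cells, beside 9.28% of all genes, and 3 lower, beside 17.6%. The higher were Slc16a1 (45 and 26.1 CPM), Higd1a (91.5 and 53.0), Pfkm (21.8 and 11.4) and Pfkfb3 (17.4 and 10.2), the last 2 with intervals that included no difference. In the sham library none of these 4 was past 1.5-fold higher, and Pfkfb3 was lower in positive cells, at 8.55 and 24.0 CPM (ratio 0.357, 0.130 to 0.790). Adm was lower in positive cells, at 13.1 and 38.8 CPM, and was so in the sham library too, at 28.5 and 62.7 CPM. Slc16a3 and Hif1a barely differed, at 26.1 and 24.9 CPM and at 215 and 194 CPM. Timp1-positive cells were deeper, with a median of 872 UMIs against 696.

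Other genes of these pathways were taken from lists drawn up by function. Of 33 further hypoxia response genes 12 were higher and 2 lower, beside the 17.7% and 18.8% of all genes. The counts of the other pathway lists lay near those shares or below them. A list of RNA of other cells had 8 higher and 3 lower of 16, among the higher Reg3b (58.9 and 1.68 CPM) and S100a8 (589 and 17.3 CPM). The higher hypoxia response genes included Plod2 (289 and 79.1 CPM) and P4ha2 (81.9 and 36.5 CPM), which hydroxylate collagen, and Ndufa4l2 (11.5 and 2.52 CPM) and Hmox1 (26.4 and 11.4 CPM). Of 53 nuclear genes of oxidative phosphorylation 0 were higher and 7 were lower, led by Cox5b (110 and 187 CPM). The list's median log2 ratio was -0.15. Other glycolysis isoenzymes and regulators had 4 higher and 4 lower of 17 measured, Pgm2 being at 19.1 and 9.25 CPM and Tigar, which lowers glycolytic flux, at 3.5 and 7.99 CPM. In the citric acid cycle 1 of 19 was higher (Sdhd, 45.2 and 22.0 CPM) and 1 lower (Idh3g, 35.7 and 63.6 CPM). Pyruvate dehydrogenase and its control had 0 higher and 1 lower of 11 (Pdk2, 2.87 and 8.73 CPM), and the pentose phosphate pathway 1 and 0 of 8. MYC and mTORC1 partners had 2 higher and 0 lower of 12. Immediate early genes, which digestion can induce, had 4 of 17 higher, and summed to 4071 and 3280 CPM.

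In macrophage-like cells (556 and 1688 cells) the gap ran across transport, enzymes and hypoxia targets. Of the 31 members with at least 10 UMIs, 14 were at least 1.5-fold higher in the colotomy library, beside 16.9% of all genes tested, and 1 was lower, beside 27.9%. The count of lower members was 4 in cells of at least 1000 UMIs and 500 genes, 3 in male-marked cells, and 4 and 7 within the 2 clusters described below. The members' median log2 ratio was 0.41 and that of all 11584 genes -0.19. The class held 478809 and 3214945 UMIs, so members with few colotomy UMIs have wide intervals.

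Of the transporters 2 were higher. Slc16a3 was at 43.9 CPM in the colotomy library and 6.53 CPM in the sham library (21 UMIs each), 6.71-fold more (3.49 to 12.9). Among the 37 male-marked colotomy cells its log2 ratio was 4.29, beside 2.75 in all cells. Slc2a1 (GLUT1), the main glucose importer of activated macrophages, was at 39.7 and 10.9 CPM, 3.64-fold more (1.97 to 6.55). Slc2a3 (16.7 and 11.5 CPM) and Slc16a1 (12.5 and 11.2 CPM) lay within 1.5-fold.

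Among the enzymes 6 were higher. Hk2, the inducible hexokinase, was at 58.5 and 34.5 CPM (1.69-fold, 1.08 to 2.58), and Aldoa at 347 and 193 CPM (1.80-fold, 1.51 to 2.14), with a log2 ratio of 0.583 in male-marked cells, just within 1.5-fold. Of the later steps of the pathway, Pgk1 was at 200.5 and 92.4 CPM (2.17-fold), Pgam1 at 165 and 57.2 CPM (2.88-fold) and Pkm at 386 and 222 CPM (1.74-fold). Ldhb, with 7 and 12 UMIs, was at 14.6 and 3.73 CPM. Gapdh was level at 307 and 309 CPM, and Eno1 lay within 1.5-fold at 50.1 and 46.7 CPM. Ldha was at 203 and 152 CPM, 1.33-fold more. Gpi1, Pfkl, Pfkp, Pfkfb3, Tpi1 and Hk1 lay within 1.5-fold. Pdk1, the kinase that keeps pyruvate out of mitochondria and a known HIF target, was the 1 member lower, with 6 and 117 UMIs (12.5 and 36.4 CPM, 2.90-fold lower). Pfkm, the muscle isoform, had 0 UMIs in the colotomy library and 13 in the sham library, which at this depth gives no fold.

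Both HIF subunits were higher. Hif1a was at 242 and 107 CPM, 2.26-fold more (1.81 to 2.79), and Epas1 at 37.6 and 9.95 CPM, 3.78-fold more (2.0 to 6.93). Egln1 was level at 35.5 and 33.9 CPM, and Egln3 was under the minimum with 2 and 3 UMIs. Of the 7 targets 4 were higher. Bnip3, which removes mitochondria in low oxygen, was at 39.7 and 10.6 CPM (3.75-fold, 2.02 to 6.77). Ndrg1 was at 37.6 and 10.3 CPM (3.66-fold, 1.94 to 6.70) and Mxi1 at 41.8 and 16.5 CPM (2.53-fold, 1.43 to 4.31). Adm had 3 and 7 UMIs, and its interval included no difference. Ddit4 (31.3 and 37.9 CPM) and Higd1a (54.3 and 63.5 CPM) lay within 1.5-fold, and Ankrd37 had 0 and 21 UMIs.

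**Figure D3:**
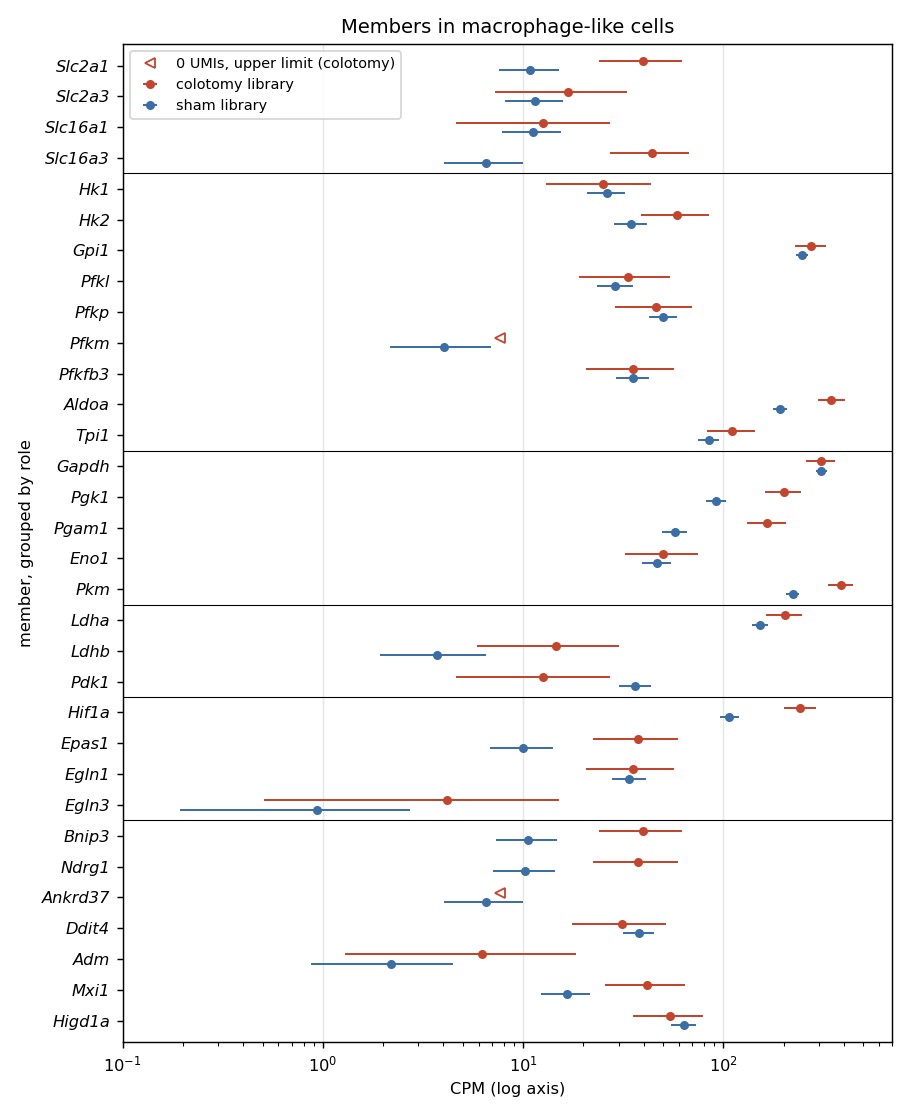
Level of each member in macrophage-like cells, in CPM on a log axis, in the 2 libraries, with exact 95% Poisson intervals. Open triangles mark the upper limit of 7.70 CPM for members with 0 UMIs. Colotomy points lie to the right for Slc16a3, Slc2a1, Bnip3, Ndrg1 and Epas1, and the 2 points coincide for Gapdh (307 and 309 CPM).

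Markers of other cells and of cell state moved with this gap. Monocyte markers summed to 10503 CPM in colotomy macrophage-like cells and 3667 CPM in sham cells (4 of 8 higher and 2 lower), neutrophil markers to 879 and 65.0 CPM (6 of 7 measured higher, Camp at 0 in the sham library), fibroblast markers to 854 and 235 CPM (8 of 9 higher), B cell markers to 689 and 2548 CPM (8 of 8 lower) and immediate early genes to 8289 and 4363 CPM. Their part in the result was not tested. At a finer clustering resolution of 2 the macrophage-like cells formed 2 clusters of very unequal share. One, led by C1qa, held 324 and 1686 cells. The other, led by Mmp12, Spp1, Gpnmb and Trem2, genes known from lipid- and scar-associated macrophages, held 245 and 51. The Mmp12-led cluster was the richer in glycolysis members in both libraries, at 2953 and 3909 CPM against 1815 and 1612 CPM in the C1qa-led cluster. Within the Mmp12-led cluster the colotomy library was the lower (ratio 0.755, 0.674 to 0.846), and within the C1qa-led cluster it was 1.13-fold the higher (1.02 to 1.24). The summed glycolysis gap of the whole class was not found at that size in either cluster.

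The single members separated along this line. Slc16a3 was at 40.3 and 5.85 CPM in the C1qa-led cluster but at 44.7 and 81.0 CPM in the Mmp12-led cluster (11 UMIs each). Pgam1 was at 101 and 50.8 CPM in the C1qa-led cluster and at 216 and 258 CPM in the Mmp12-led cluster, and Pkm at 282 and 218 and at 496 and 537 CPM. Hif1a, Epas1, Bnip3, Ndrg1, Mxi1 and Slc2a1 were on the higher side in both clusters, although in the Mmp12-led cluster, with 51 sham cells, the intervals of all but Bnip3 included no difference. Hif1a was at 226 and 107 CPM in the C1qa-led and 240 and 169 CPM in the Mmp12-led cluster, and Mxi1 at 36.3 and 15.7 and at 52.9 and 29.4 CPM. Slc2a1 was at 24.2 and 9.54 and at 56.9 and 22.1 CPM. Bnip3 was at 36.3 and 10.5 CPM in the C1qa-led cluster and had 11 and 0 UMIs in the Mmp12-led cluster, at least 2.03-fold more against a floor of 3 UMIs in the sham library. Ndrg1 and Epas1 each had only 1 sham UMI in the Mmp12-led cluster. An unnamed cluster led by Lyz1, Retnla and Ear2, with Ccr2 among its leading genes, held 229 and 853 cells. There Slc16a3 was at 41.6 and 41.4 CPM and Hif1a at 140 and 176 CPM.

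Spp1 (osteopontin) is a gene of scar-associated macrophages. At least 1 UMI was found in 202 of 556 colotomy macrophage-like cells (36.3%, 32.3% to 40.5%) and in 29 of 1688 sham cells (1.72%, 1.15% to 2.46%). With cells thinned to 500 UMIs the shares were 32.2% and 0.770%, and in T and B cell-like cells 1.54% and 0.0778% (unthinned 1.92% and 0.163%). Spp1-positive colotomy cells held 2902 CPM of glycolysis members and Spp1-negative cells 1987 CPM, 1.46-fold more. The sham library gave 2712 and 1636 CPM. Hypoxia members were at 539 and 524 CPM in positive and negative colotomy cells and at 331 and 299 CPM in sham cells. Of 24 members measured, 7 were at least 1.5-fold higher in positive colotomy cells, beside 17.8% of all genes, and 2 were lower, beside 31.0%. The lower were Egln1 (5 and 12 UMIs) and Ddit4 (3 and 12 UMIs), both with intervals that included no difference. Hk2 (87.4 and 36.7 CPM), Aldoa (461 and 260), Tpi1 (141 and 88.0), Pgam1 (238 and 110) and Mxi1 (67.9 and 22.0) were among the higher, Tpi1 with an interval that included no difference. Aldoa (471 and 186 CPM), Pgam1 (178 and 54.2) and Tpi1 (204 and 81.9) gave the same order in sham cells. Hif1a did not, at 233 and 249 CPM in colotomy cells. Positive colotomy cells were deeper (median 852.5 UMIs against 664). Within the Mmp12-led cluster alone the log2 ratio of positive to negative cells was -0.11, and within the C1qa-led cluster 0.77.

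**Figure D4:**
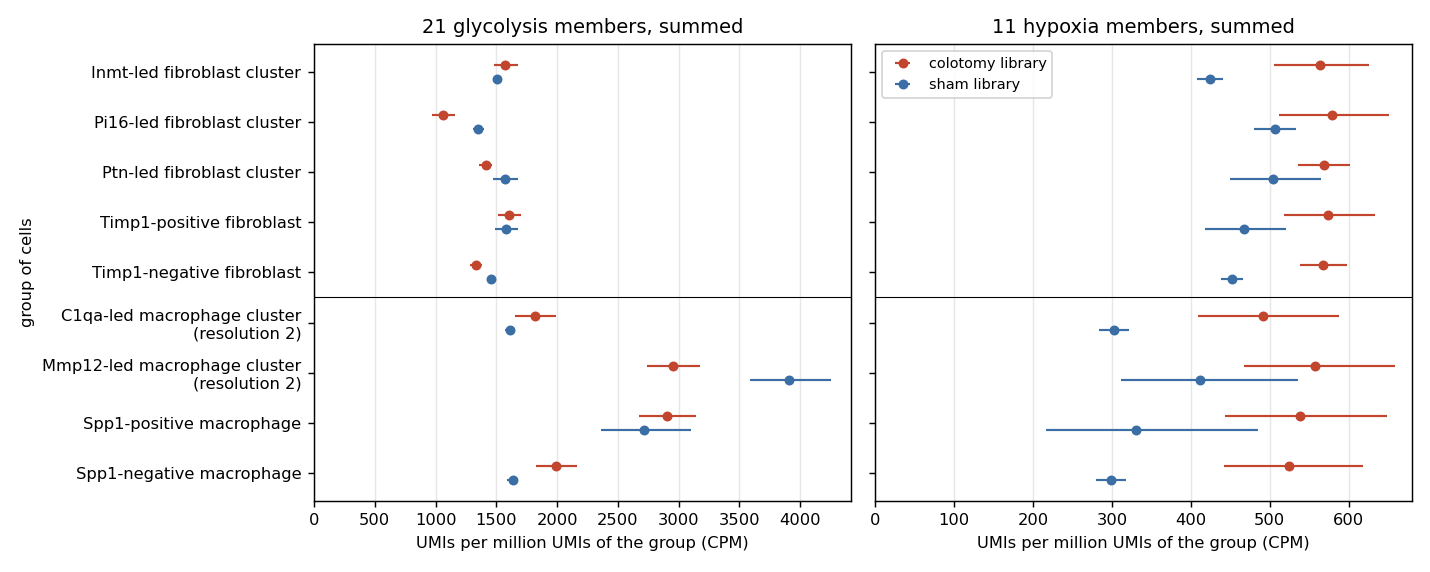
Summed glycolysis members (left) and hypoxia members (right) in CPM in the fibroblast-like clusters and Timp1 groups (above the line) and the macrophage-like clusters and Spp1 groups (below it), with exact 95% Poisson intervals. Spp1-positive and Mmp12-led macrophage-like cells lie to the right on the left panel in both libraries, whereas on the right panel the colotomy points lie to the right of the sham points.

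Further pathway genes in macrophage-like cells came from the same lists. Of 27 further hypoxia response genes measured, 12 were higher and 5 lower, beside the 16.9% and 27.9% of all genes. In the lists that follow, too, the counts of lower genes lay near that share or below it. Vegfa, the endothelial growth factor, was at 102 and 4.67 CPM (49 and 15 UMIs), Hmox1 at 349 and 113 CPM and Bhlhe40 at 127 and 45.4 CPM, while Angptl4 was at 8.35 and 32 CPM. The pentose phosphate pathway had 4 higher and 1 lower of 8: Pgd was at 259 and 89.3 CPM, Taldo1 at 353 and 204, Tkt at 386 and 229 and Rpe at 45.9 and 25.5. Of 53 nuclear genes of oxidative phosphorylation 1 was higher and 1 lower. Hk3, the hexokinase of myeloid cells, was at 89.8 and 19.6 CPM. In all, 5 of 13 other isoenzymes and regulators were higher and 2 lower, Bpgm among the latter with 1 and 58 UMIs. Citric acid cycle genes had 2 higher and 2 lower of 18, pyruvate dehydrogenase and its control 3 and 2 of 11, and MYC and mTORC1 partners 1 and 4 of 12, with Myc at 18.8 and 34.8 CPM. Of 17 immediate early genes 10 were higher.

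Dendritic-like cells (367 and 1381 cells) also had many members higher. Of 29 members measured, 14 were higher in the colotomy library, beside 24.0% of all genes, and 4 were lower, beside 19.0%. Slc16a3 was at 90.6 and 5.18 CPM (25 and 15 UMIs, 17.5-fold, 8.88 to 35.7), the highest ratio of any member measured in the 10 classes. Hif1a was at 254 and 94.6 CPM, Tpi1 at 170 and 60.4 CPM, Pgk1 at 246 and 112 CPM and Ndrg1 at 58.0 and 20.7 CPM. Of the lower, Slc2a3 and Slc16a1 had 1 UMI each in the colotomy library. Immediate early genes were higher here too, at 8228 and 3443 CPM.

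T cell-like cells had 15 of 30 members higher, beside 33.8% of all genes, and none lower, beside 13%. B cell-like cells had 13 of 31 higher, beside 30.3%, and 3 lower, beside 12.2%. With 91165 and 95230 colotomy UMIs in these classes, 1 UMI is worth over 10 CPM, so the ratios of low genes there rest on 0 or a few UMIs. Of the members measured, 5 in T cell-like and 6 in B cell-like cells had 0 UMIs in a library. A 0 was set to the floor of 3 UMIs. A member low in the sham library and absent from the colotomy library could therefore not be called lower. The abundant enzymes bear the comparison better. In T cell-like cells Pgk1 was at 351 and 94.1 CPM (3.73-fold, 2.51 to 5.36), Tpi1 at 230 and 55.5 CPM, Pkm at 461 and 210 CPM and Ldha at 362 and 175 CPM. In B cell-like cells Ldha was at 368 and 122 CPM (3.01-fold, 2.09 to 4.21) and Pkm at 336 and 179 CPM. That class joined clusters of 103 and 3693, 12 and 2991, and 19 and 2440 cells. Other clusters with Fcer2a or Ighd among their leading genes were left unnamed. The part of these shares in the B cell-like values was not tested. Gapdh was 1.59-fold higher in T cell-like cells, the only class compared with a ratio above 1.5 for it. Hif1a was level in T cell-like cells, at 110 CPM in both libraries. Plasma cell-like cells joined a cluster led by Ighg1 (425 and 333 cells) and a cluster led by Igha (222 and 728 cells). The part of these unequal shares was not tested. The class had 8 of 30 members higher, beside 24.8%, and 6 lower, beside 19.6%. Slc16a3 (17.0 and 3.12 CPM), Bnip3 (11.4 and 2.5) and Hk2 (51.1 and 27.1) were among the higher, and Gapdh (196 and 390) among the lower.

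Vascular endothelial-like cells (185 and 1122 cells) had 8 of 31 members higher, beside 24.5% of all genes, and 7 lower, beside 20.7%. Markers of other cells differed here too. Lymphatic markers (7 of 7 higher) summed to 4884 and 2487 CPM, adipocyte markers (5 of 5 measured higher, Plin1 and Lep at 0 in the sham library) to 1159 and 50.5 CPM, and neutrophil markers (4 of 4 measured higher) to 1395 and 14.6 CPM. Fibroblast markers (7 of 9 higher) summed to 2373 and 508 CPM, erythroid markers (4 of 5 measured lower) to 1258 and 7348 CPM and B cell markers (8 of 8 lower) to 324 and 2314 CPM. Their part in these counts was not tested. They held by far the most Epas1 of the classes compared, 548 and 518 CPM, with little gap between the libraries, and the most Ndrg1, at 224 and 191 CPM. Hif1a was at 212 and 113 CPM (1.88-fold, 1.27 to 2.71). Gapdh was 3.53-fold lower in the colotomy library, at 68.5 and 242 CPM, and Eno1 had 1 and 74 UMIs. Mesothelial-like cells, which line the abdominal cavity, had 5 of 29 higher, beside 21.3%, and 6 lower, beside 23.0%. They held the most Slc16a1, at 205 and 129 CPM (1.59-fold, 1.05 to 2.35), and Gapdh was at 99.4 and 275 CPM. In mesothelial-like cells fibroblast markers (6 of 9 higher) summed to 13907 and 9325 CPM and neutrophil markers (3 of 3 measured higher) to 557 and 14.1 CPM. Erythroid markers (4 of 4 measured lower) summed to 1027 and 4382 CPM and B cell markers (8 of 8 lower) to 384 and 1798 CPM. The part of these markers was not tested.

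Epithelial-like cells (1371 and 2248 cells) had 4 of 32 members higher, beside 23.7% of all genes, and 4 lower, beside 15.8%. The class joined a cluster led by Dmbt1 (1116 and 855 cells) and a cluster led by Lypd8 (255 and 1393 cells). Fibroblast markers (9 of 9 higher) summed to 1439 and 356 CPM and neutrophil markers (7 higher, 1 lower) to 811 and 141 CPM. Erythroid markers (6 of 6 measured lower) summed to 291 and 2587 CPM and B cell markers (8 of 8 lower) to 256 and 1392 CPM. The part of the clusters and of these markers was not tested. Slc16a3 was at 18.4 and 5.47 CPM (3.36-fold, 1.93 to 5.81), Bnip3 at 14.3 and 4.94 CPM and Pfkm at 10.2 and 3.35 CPM. Gapdh was at 298 and 467 CPM, the lower in the colotomy library. Higd1a was highest in this class, at 458 and 541 CPM, and Hif1a was at 72.1 and 62.8 CPM. Goblet-like cells had 6 of 32 higher, beside 14.9%, and 4 lower, beside 13.4%. They held the most Hk2, at 115 and 148 CPM, and their Slc16a3 was at 5.80 and 0.596 CPM (8 and 2 UMIs).

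Read across classes, single members differed in how many classes they were higher in. Slc16a3 was at least 1.5-fold higher in 8 of the 8 classes in which it was measured, and over all kept cells it was at 27.4 and 4.43 CPM. Neutrophil-like cells held the most, 260 and 145 CPM, and were more frequent in the colotomy library (174 of 9246 and 65 of 42143 cells). At resolution 2 the cluster led by the same gene, Ngp, also carried fibroblast markers and was left unnamed. After subtraction of free RNA the log2 ratio of Slc16a3 was 2.80 in fibroblast-like and 2.70 in macrophage-like cells, beside 2.77 and 2.75 without it. The profile subtracted was not taken from droplets known to be empty, so the part of neutrophil RNA in this gap was not tested. Slc16a1 was higher in 7 of 10 classes and lower in 1. Epas1 was higher in 6 of the 9 classes that gave a fold and lower in none. Bnip3 was higher in 5 of the 8 that gave a fold and lower in 1. In colotomy B cell-like cells both were at 0 CPM, which gave no fold. Hif1a was higher in 5 of 10 classes, fibroblast-, vascular endothelial-, mesothelial-, macrophage- and dendritic-like, and lower in none. Pgk1, Hk2 and Mxi1 were each higher in 5 of 10 and lower in none. Gapdh was lower in 6 of 10 classes and higher in 1, and Eno1 lower in 5 and higher in none, and Gapdh was no fixed reference between these libraries. Ddit4 was lower in 4 of 10 and Pdk1 in 4 of 10, with neither higher in any.

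**Figure D5:**
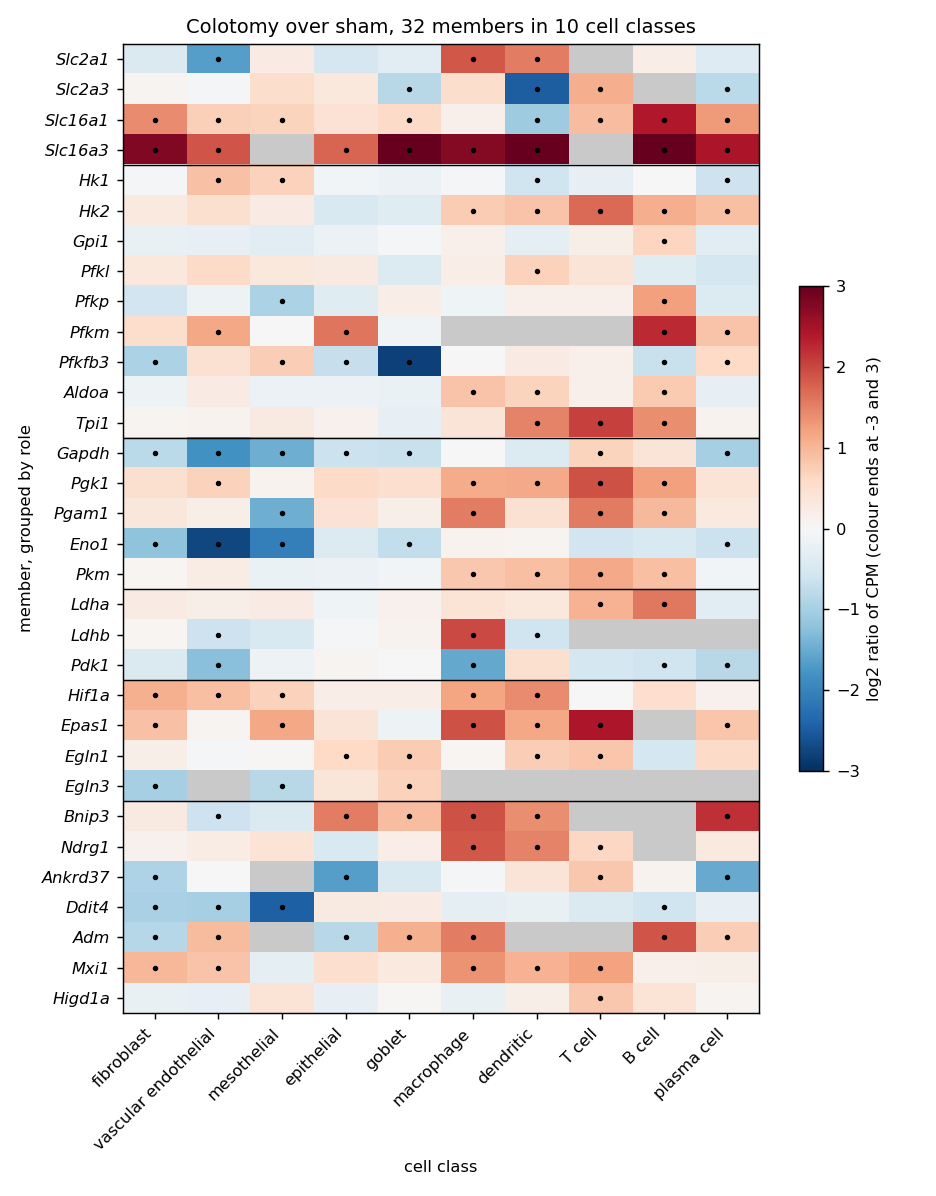
Log2 ratio of colotomy to sham CPM for the 32 members (rows, grouped by role) in the 10 classes compared (columns); red is higher and blue lower in the colotomy library, dots mark at least 1.5-fold, and grey marks members under 10 UMIs or without a fold. Slc16a3 is red in each class where it was measured, Gapdh and Eno1 are mainly blue, and the macrophage- and dendritic-like columns are red for most members that carry dots.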

How the data were processed

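Single-cell RNA was counted in 2 libraries, 1 after colotomy and 1 after a sham operation. The deposited values are raw UMI counts per gene and barcode, made with Cell Ranger 6.0.0 per the file headers, while mm10, STAR 2.5.1b, Seurat and Space Ranger stand in the submitters' processing notes. A barcode was kept from 500 UMIs and 300 genes upward, if its mitochondrial share was below 20%. Cells were clustered with scanpy 1.11.5 and igraph 0.11.9 (2000 variable genes, 30 principal components, 15 neighbours, Leiden resolution 1), without the 32 members, and clusters were named from marker lists. Names were rebuilt here and may differ from the study's. Scrublet called 0 doublets in both libraries and so did not work, and none were removed. UMIs were summed per class and library and scaled to 1000000 (CPM), with exact Poisson intervals for levels and exact conditional binomial intervals for ratios (scipy 1.17.1). A gene was measured at 10 or more UMIs over both libraries and called higher or lower at 1.5-fold. Against a count of 0, a floor of 3 UMIs per library gave a bound. Alternatives varied the cell filter, Leiden resolution, doublet score, sex-linked UMIs, scaling, free RNA, thinning and thresholds. Values within single clusters and without shared barcodes were added after seeing the data. The ratio calculation was tested on simulated data. Members and lists were chosen with earlier results of these data known. All 32 members are accounted for. Of each other list, up to 4 genes with the largest absolute log2 ratio, at 50 or more UMIs over both libraries, could be named. UMIs count captured molecules, and in a class fewer cells of a state and less RNA per cell cannot be told apart.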

Additional observations from a re-analysis of the deposited data

How the results depend on the processing

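No paired analysis was possible because each group has 1 library. Values here are log2 ratios of colotomy to sham unless said otherwise, and the cause of each shift was not tested. Summed glycolysis members in fibroblast-like cells (-0.07) came to 0.085 at 1000 UMIs and 500 genes per cell, -0.13 with Leiden resolution 2, -0.024 with the top Scrublet scores removed, -0.20 without mitochondrial and ribosomal genes, 0.032 without Gapdh, and 0.065, -0.35 and -0.16 within the Inmt-, Pi16- and Ptn-led clusters, so the sign of this small ratio was not stable. Summed hypoxia members there (0.33) came to 0.19 in male-marked cells, 0.21 without mitochondrial and ribosomal genes, and 0.41, 0.19 and 0.17 within the same clusters. The intervals in male-marked cells and in the Ptn-led cluster included no difference. The count of members higher (5) became 8 at the stricter cell filter, 3 at 2-fold, 9 in the Inmt-led and 3 in the Ptn-led cluster. In the Ptn-led cluster Pfkfb3 (0.19) and Ddit4 (0.026) changed sign. The Timp1 ratio of positive to negative cells (0.27) came to 0.10 in male-marked cells, 0.49 and 0.14 in the Inmt- and Pi16-led clusters, and 0.41 with positives at 2 UMIs. In male-marked cells and in the Pi16-led cluster its interval included no difference. In macrophage-like cells summed glycolysis (0.52) came to 0.76 at the stricter filter, 0.66 in male-marked cells, 0.40 without mitochondrial and ribosomal genes, 0.70 when centred on all genes, 0.62 without Gapdh, and 0.17 and -0.40 within the C1qa- and Mmp12-led clusters. Summed hypoxia members (0.82) came to 0.58 in male-marked cells and 0.43 in the Mmp12-led cluster, both with intervals that included no difference. The count of members higher (14) became 5 in the Mmp12-led cluster, where Slc16a3 (-0.86), Hk2 (-0.66), Aldoa (-0.33), Pgam1 (-0.26), Pkm (-0.12) and Ldhb (-0.86) changed sign. The count of members lower there (1) became 4 at the stricter filter, 3 in male-marked cells, and 4 and 7 within the C1qa- and Mmp12-led clusters, and that in fibroblast-like cells (7) became 3 in the Ptn-led cluster and 1 at 2-fold. The Spp1 ratio of positive to negative cells (0.55) came to 1.56 in male-marked cells, and 0.77 and -0.11 within the C1qa- and Mmp12-led clusters. Past 1.5-fold under each of 11 alternatives in fibroblast-like cells were Slc16a3 and Hif1a (higher), and under each of 10 in macrophage-like cells Slc2a1, Bnip3, Ndrg1 and Mxi1 (higher, Bnip3 in the Mmp12-led cluster as a bound). Members with too few UMIs in some alternatives were past it in those that measured them: Egln3 in 7 and Ankrd37 in 9 (lower, fibroblast-like), and Epas1 in 9 and Adm in 5 (higher) and Pdk1 in 8 (lower, macrophage-like).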
